A study of Mus musculus with 743 samples.

Results

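The imprinted growth genes H19, Igf2, Igf2r, Dlk1, Meg3, Peg3, Grb10, Plagl1, Mest and Ndn were followed through single Schwann cells (SCs) of the mouse sciatic nerve at postnatal day 1. The 10 genes form a list set by name, and their Ensembl identifiers were matched to symbols among the 25700 genes counted. H19 and Meg3, both noncoding RNAs, are not analysed here, so 8 of the 10 genes were measured and 7 of them had a read in at least 1 cell. Wells with fewer than 1500 detected genes were set aside, which left 621 of the 743 wells as cells, 287 on plate 1 and 334 on plate 2.

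An imprinted gene is read mainly from the copy inherited from 1 parent, a choice laid down as DNA methylation in the germ line. Many imprinted genes act on growth before and after birth: genes read from the paternal copy, such as Igf2, Peg3, Plagl1, Mest and Dlk1, tend to favour growth, while genes read from the maternal copy, such as H19, Igf2r, Cdkn1c and in most tissues Grb10, tend to restrain it. SCs around birth leave the cell cycle, take up single large axons and begin to express myelin genes, which sets dividing and differentiating cells side by side in the same nerve.

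All cells came from mice that carried P0Cre, a Cre recombinase active in the SC lineage, a Rosa26 eYFP reporter that Cre turns on, and a βAct-DsRed transgene active in all cells, on a C57BL/6J background. The sort took eYFP-positive cells, so the marked cells are those with a history of P0Cre activity. Each plate held cells pooled from its own 2 mice, a male and a female, and the plate was the replicate (n = 2). The counts do not separate the maternal from the paternal copy. Cells were placed in 3 classes by genes outside the list. Cycling cells had a sum of Mki67 and Top2a, both markers of proliferation, of at least 50 CPM, the counts scaled to the same total of reads,, which made 53 cells on plate 1 and 57 on plate 2. Promyelinating cells were not cycling and had at least 50 CPM of Ncmap, a myelin membrane gene, which made 59 and 60 cells. The remaining 175 and 217 cells were called other. The median number of genes detected per cell was 3690 and 3550 in promyelinating cells, 3425 and 3477 in cycling cells and 2775 and 2819 in other cells. Between 25 and 100 CPM, near the thresholds, lay 9 cells for Mki67 and Top2a and 9 for Ncmap. The reads of the cells of a class on a plate were summed, which gave 6 sums of 45073128 to 172878954 reads.

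SC markers were present in most cells: a read of Sox10 was found in 82.4% of the cells and one of Erbb3 in 82.4%. Of the other cell types a nerve can hold, the endothelial list (5 genes, with Cdh5 and Kdr at 0 reads) summed to between 0 and 2.91 CPM in the 6 sums. The immune list (4 genes, with Ptprc and Tyrobp at 0) summed to between 2.77 and 20.7 CPM and the mural list (4 genes, with Acta2 and Rgs5 at 0) to between 24.8 and 56.8 CPM. The perineurial list of 3 genes summed to between 32.6 and 67.4 CPM. The fibroblast-like list of 5 genes summed to 2932 and 3282 CPM in promyelinating sums against 5812 to 6234 CPM in the others. Almost all of that sum was Col1a1 and Col3a1, Pdgfra, the defining marker, was at 0, and Dcn had a read in 4.03% of the cells. No pair of kept cells had identical values, and the plates shared no column name.

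Per kilobase of exon, the scale on which levels of different genes are compared, Ndn stood highest among the members at 47.4 ± 0.812 CPM per kb (mean ± SD over the plates, n = 2). Grb10 followed with 17.5 ± 1.07, Mest with 9.28 ± 0.360 and Peg3 with 5.43 ± 2.43 CPM per kb. Igf2r had 0.968 ± 0.809, Plagl1 0.335 ± 0.167 and Igf2 0.267 ± 0.347 CPM per kb, and the plate values of these 3 genes overlapped one another. The order from Ndn to Grb10, Mest, Peg3 and Igf2r was the same on both plates without overlap. Cdkn1c, the imprinted cell cycle inhibitor against which the members were set, had 342 ± 94.5 CPM per kb. The median cell had a read of 2 members on either plate, and 33 cells on plate 1 and 42 on plate 2 had none.

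Start sites are shown for the members on which the results turn, because the mark that sets imprinting is placed on CG pairs and these start sites differ widely in how many they hold. RefSeq promoter windows of build GRCm38.p6 matched 9 of the 11 genes looked up. Each line below gives the 140 bases from 154 to 15 bases before a RefSeq start, written 5′ to 3′ on the strand of the gene, with every CG pair in capitals. None of these stretches touches an annotated exon.
Peg3, chr7:6730434-6730573, minus strand: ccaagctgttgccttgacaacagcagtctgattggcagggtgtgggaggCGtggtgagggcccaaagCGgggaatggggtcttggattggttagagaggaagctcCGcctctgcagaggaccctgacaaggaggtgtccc
Mest, chr6:30737896-30738035, plus strand: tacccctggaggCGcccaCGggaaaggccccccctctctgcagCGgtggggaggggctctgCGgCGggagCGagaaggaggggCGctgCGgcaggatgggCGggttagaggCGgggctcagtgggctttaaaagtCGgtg
Grb10, upstream start, chr11:12037435-12037574, minus strand: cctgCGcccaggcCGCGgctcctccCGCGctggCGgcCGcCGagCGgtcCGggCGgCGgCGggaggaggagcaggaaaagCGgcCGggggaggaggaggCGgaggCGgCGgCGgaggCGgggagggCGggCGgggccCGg
Grb10, downstream start, chr11:12027986-12028125, minus strand: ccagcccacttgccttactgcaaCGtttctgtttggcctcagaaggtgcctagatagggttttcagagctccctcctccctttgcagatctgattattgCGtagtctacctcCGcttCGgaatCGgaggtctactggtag
The Peg3 stretch held 3 CG pairs, the median of all 32851 stretches of this length and position, of which 84.3% held at least 1. The Mest stretch held 11, more than 77.1% of all stretches. The upstream Grb10 stretch held 23, more than 97.8% of all, and the downstream one 5, more than 56.5%. Over whole windows of 300 bases, Peg3 held 13 CG pairs, more than 62.1% of windows, and the downstream Grb10 start 9, more than 54.2%. The window of the Mest start shown held 17, more than 68.6%, and the upstream Grb10 window 45, more than 98.1%. A further RefSeq start of Mest, upstream at chr6:30733506, is not shown. Its window held 8 CG pairs, more than 51.35% of windows. The Mest start shown was picked by its CG count, so it does not stand for every Mest start. Peg3 and the downstream Grb10 start thus changed order with the length taken. The pair CG reads the same on both strands, and no methylation was measured in these cells.

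Across the 3 classes, Peg3 was the one member whose level passed the test, higher in cycling than in promyelinating cells. Cdkn1c went the opposite way. Ndn, Grb10, Mest, Igf2r, Plagl1 and Igf2 did not pass in any of the 3 comparisons, which were tested with edgeR's quasi-likelihood test on the 6 sums with adjustment over 13292 genes. Between cycling and promyelinating cells, 1 of the 7 tested members passed, beside 5.95% of all genes tested. The count was 0 of 7 between promyelinating and other cells, with 2 members at an unadjusted p under 0.05, beside 1.79% of all genes called. It was 0 of 7 between cycling and other cells, with 0 at an unadjusted p under 0.05, beside 1.01% of all genes. DESeq2 called 2 members between cycling and promyelinating cells (17.8% of all genes), 2 between promyelinating and other cells (8.03%), and 0 between cycling and other cells (6.07%). The median log2 fold change of the 7 members was 0.54 for cycling against promyelinating cells, where that of all genes was 0.02. It was -0.26 for promyelinating against other cells (all genes -0.07) and -0.33 for cycling against other cells (all genes -0.07).

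**Figure D1:**
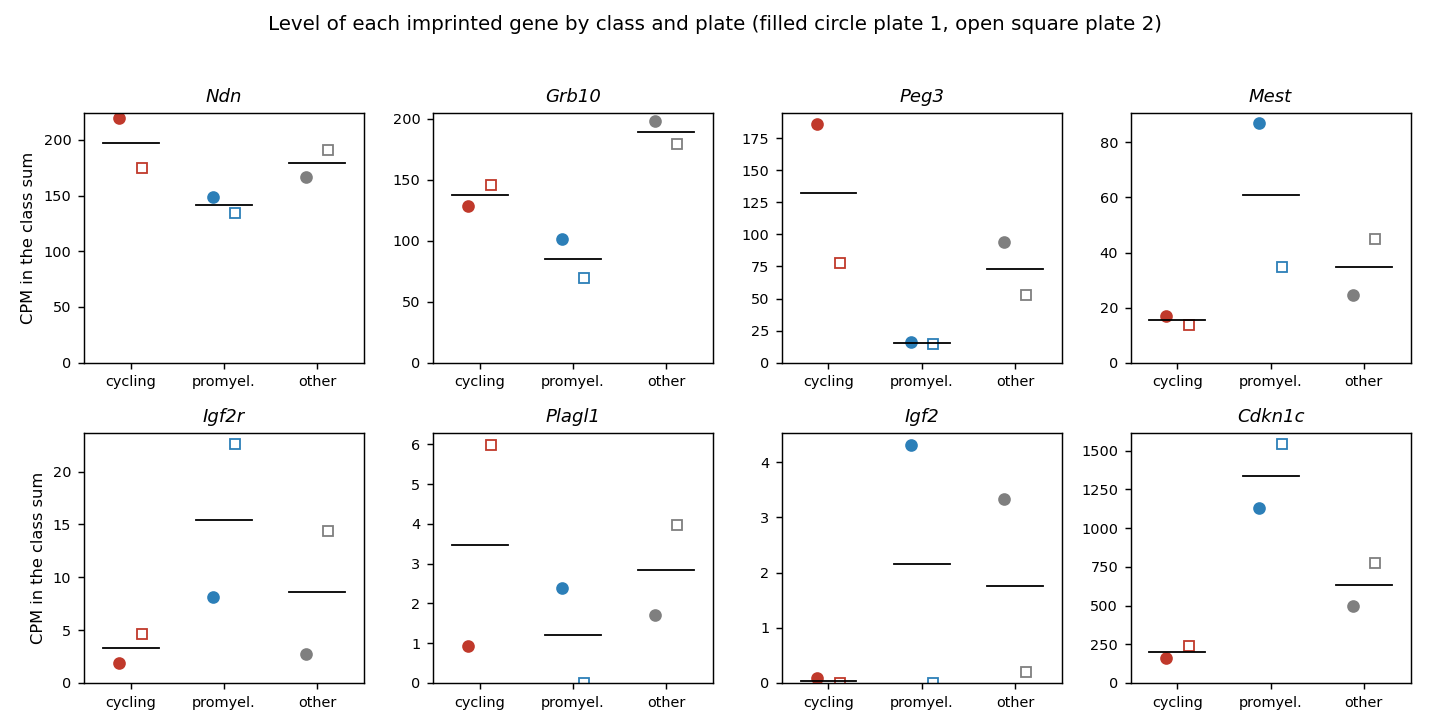
Level of 7 members and Cdkn1c, in CPM of the summed reads of each class (vertical axis, linear from 0), in cycling, promyelinating and other cells; filled circles are plate 1, open squares plate 2 and black lines the mean of both. Peg3 sat at 16.4 and 14.3 CPM in promyelinating cells, below both plates of the other classes, and Cdkn1c showed the opposite order with 1132 and 1546 CPM in promyelinating cells.

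The paternally expressed ligand Igf2 (ENSMUSG00000048583, chr7:142650766-142666816, minus strand, coordinates of build GRCm38 from GENCODE), the insulin-like growth factor of fetal tissues, was close to absent from SCs. A read was found in 11 of 621 cells, or 1.77% (exact 95% binomial interval 0.887% to 3.15%), and 9 of these cells were on plate 1. In cycling cells it reached 0.0843 CPM on plate 1 and 0 on plate 2, in promyelinating cells 4.32 and 0, and in other cells 3.33 and 0.197. Most of these reads came from few cells: of 795 reads in all, single cells of plate 1 held 278, 226 and 221, the first 2 of class other and the last promyelinating. With so few cells per sum no difference between classes could be read. Leaving out the 3 richest cells per plate and class took 100% of the promyelinating reads and 99.6% of the other reads of plate 1. The mean log2 ratio of CPM + 1 for promyelinating against other cells, then -0.01, was set by that step and shows nothing about the classes. An Igf2 exon overlaps Gm49394 on the same strand and Igf2os on the opposite one. The sources name no strand-keeping step for these libraries or for the counting, so reads shared with Igf2os cannot be told apart. Reads shared with Gm49394 could not be told apart by strand in any case. The Igf2 counts are uncertain to that extent.

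Igf2r (ENSMUSG00000023830, chr17:12682406-12769664, minus strand), the maternally expressed receptor that carries IGF2 to the lysosome, had a read in 19.6% of the cells. It reached 8.13 and 22.6 CPM in promyelinating cells on plates 1 and 2, 2.78 and 14.4 CPM in other cells, and 1.87 and 4.64 CPM in cycling cells. Cycling cells were lowest and promyelinating cells highest on both plates, but plate 2 exceeded plate 1 in every class, and other cells overlapped with both remaining classes. For cycling against promyelinating cells the log2 fold change was -2.20 ± 1.25 (SE), with an edgeR adjusted p of 0.365. Few cells carried these levels: without the 3 richest per plate and class, the mean log2 ratio of CPM + 1 for promyelinating against other cells went from 0.95 to -0.17. Those cells held 70.8% and 85.9% of the promyelinating reads, but 67.1% and 37.6% of the reads of the larger class other. The step weighed unequally on the classes, so this fall is no check on that difference. A read was found in 37.3% and 30.0% of promyelinating cells, 13.7% and 17.5% of other cells and 17% and 19.3% of cycling cells. Thinned to 50000 reads per cell, which left out 5 cells, the shares were 10.2% and 19%, 4% and 12.6%, and 5.77% and 10.5% in the same order. The plates held a like share of cells with a read, 19.2% and 20.1%, but the share with at least 5 reads was 5.23% on plate 1 and 15.3% on plate 2.

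Grb10 (ENSMUSG00000020176, chr11:11930508-12038683, minus strand), the adaptor that binds the insulin and IGF1 receptors and dampens their signal, was the member found in most cells. A read was found in 365 of 621 cells, or 58.8% (54.8% to 62.7%). Promyelinating cells reached 101 and 69.5 CPM on plates 1 and 2, cycling cells 129 and 146 CPM, and other cells 198 and 179 CPM. The 3 classes did not overlap, with other cells highest and promyelinating cells lowest on both plates. The log2 fold change of promyelinating against other cells was -1.07 ± 0.30 (SE), with an edgeR adjusted p of 0.167 and a DESeq2 adjusted p of 0.0183. DESeq2 was the 1 of the 11 alternative fits that passed, and the adjusted p ranged up to 0.558. That highest value came from edgeR with cells of at least 2500 genes, where the log2 fold change was -0.58. Cycling against promyelinating cells gave 0.74 ± 0.30, with an edgeR adjusted p of 0.212. The share of cells with a read did not follow the level: it was 41 of 53 and 38 of 57 cycling cells, 33 of 59 and 30 of 60 promyelinating cells and 103 of 175 and 120 of 217 other cells. Where the gene was read, the median level was 204 and 231 CPM per cell in other cells against 124 and 184 CPM in cycling cells, so fewer other cells held more Grb10 each.

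Plagl1 (ENSMUSG00000019817, chr10:13060504-13131694, plus strand), a zinc finger transcription factor known to regulate other imprinted genes, had a read in 10 of 621 cells, or 1.61% (0.775% to 2.94%). Cycling cells reached 0.927 CPM on plate 1 and 5.99 on plate 2, promyelinating cells 2.40 and 0, and other cells 1.70 and 3.97. No sum drew on more than 4 cells with a read, and 6 of the 10 cells were cycling. A Plagl1 exon overlaps Gm27741 on the opposite strand.

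Peg3 (ENSMUSG00000002265, chr7:6703892-6730431, minus strand) encodes a large zinc finger protein read from the paternal copy, known for its part in growth and maternal behaviour. Its level was 16.4 and 14.3 CPM in promyelinating cells on plates 1 and 2, 93.9 and 52.6 CPM in other cells, and 186 and 77.8 CPM in cycling cells. Promyelinating cells lay below every sum of the other classes, while cycling and other cells overlapped. The log2 fold change of cycling against promyelinating cells was 3.17 ± 0.55 (SE), with an edgeR adjusted p of 0.0131 that stayed between 2.32e-07 and 0.0150 over the 11 alternative fits. For promyelinating against other cells it was -2.18 ± 0.53, with an edgeR adjusted p of 0.108 and a range of 0.00192 to 0.132 over the alternatives, of which 5 of 11 passed. Cycling against other cells gave 0.99 ± 0.51, with an edgeR adjusted p of 0.567.

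The classes stood further apart in the number of cells with a Peg3 read than in the level within those cells. A Peg3 read was found in 5 of 59 and 7 of 60 promyelinating cells, or 8.47% and 11.7%, against 24.6% and 28.6% of other cells and 41.5% and 26.3% of cycling cells. Thinned to 50000 reads per cell the shares were 5.08% and 8.62%, 21.7% and 22.3%, and 30.8% and 26.3%. In the cells with a read, the median Peg3 level was 159 and 143 CPM in promyelinating cells, 258 and 107 CPM in other cells and 114 and 229 CPM in cycling cells, so that the classes overlapped on this measure. The 3 richest cells held 97.3% and 92.9% of the promyelinating reads and 70.8% and 56.8% of the cycling reads. Without the 3 richest cells per plate and class, the mean log2 ratio of CPM + 1 for cycling against promyelinating cells went from 2.90 to 4.81, and that for cycling against other cells from 0.77 to -0.08. Since this step took almost all promyelinating reads, the first ratio had to rise, so it is no check on that difference. Nor is the second, since the 3 richest cells held 26.7% and 33.0% of the reads of other cells, a smaller part than in cycling cells. The list of 8 genes that respond to dissociation, immediate-early and heat shock genes, summed to 2205 and 2418 CPM in promyelinating cells. The other sums held 4726 to 7160 CPM. Most of this was Fos, at 1871 and 1961 CPM against 3623 to 5469 CPM. The heat shock genes were not lower than in cycling cells. Hspa1a had 83.6 and 94.3 CPM in promyelinating cells, 51.6 and 63.9 CPM in cycling cells and 113 and 114 CPM in other cells. Hspa1b had 24.8 and 46.1, 15.7 and 21.1, and 24.6 and 26.0 CPM in the same order. The fibroblast-like list above was also lower in promyelinating cells. The part of these lists in the Peg3 difference was not tested.

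**Figure D2:**
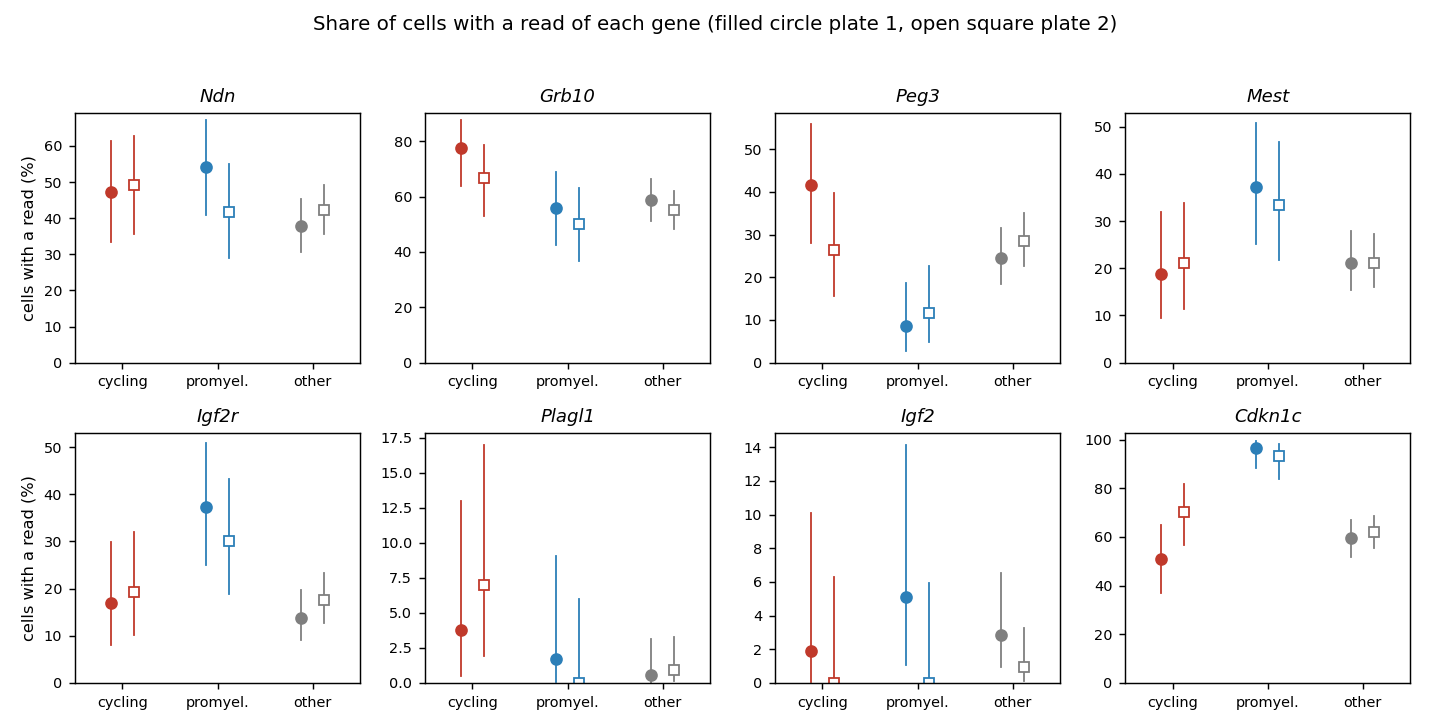
Share of cells with at least 1 read (vertical axis, percent, from 0) for 7 members and Cdkn1c by class; filled circles are plate 1, open squares plate 2, and bars are exact 95% binomial intervals, which cover counting error only. Peg3 was read in 8.47% and 11.7% of promyelinating cells, below both other classes on either plate, while Mest, Igf2r and Cdkn1c were each read in a larger share of promyelinating cells than of the other classes on both plates. Promyelinating cells also had the most genes detected per cell, and the part of this in the shares was not tested.

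Ndn (ENSMUSG00000033585, chr7:62346569-62350262, plus strand), an intronless gene of the MAGE family in the region tied to Prader-Willi syndrome, encodes necdin, known for holding neurons out of the cell cycle. Among the members read in over 20% of the cells it differed least between the classes, with 220 and 175 CPM in cycling cells on plates 1 and 2, 149 and 134 CPM in promyelinating cells, and 167 and 191 CPM in other cells. Cycling and other cells overlapped, and promyelinating cells lay just below both. The log2 fold change of cycling against promyelinating cells was 0.54 ± 0.26 (SE), with an edgeR adjusted p of 0.289. A read was found in 47.2% and 49.1% of cycling cells, 54.2% and 41.7% of promyelinating cells and 37.7% and 42.4% of other cells, again with overlap. Among cells with a read the median reached 567 and 316 CPM in cycling cells and 162 and 291 CPM in promyelinating cells. The Spearman correlation of Ndn with the number of genes detected in a cell was 0.31 on plate 1 and 0.18 on plate 2, the highest on plate 1 among the members.

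Dlk1 (ENSMUSG00000040856, chr12:109452823-109463336, plus strand), a paternally expressed transmembrane protein of the Notch ligand family and a marker of preadipocytes, had 0 reads in 621 cells, a count that leaves room, by counting error alone, for detection in up to 0.483% of cells. Its region on chromosome 12 also holds Meg3, one of the noncoding members not analysed here.

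Mest (ENSMUSG00000051855, chr6:30723547-30748465, plus strand), a paternally expressed member of the alpha/beta hydrolase family known from the embryonic mesoderm, had its lowest level in cycling cells. It reached 87.1 and 34.6 CPM in promyelinating cells on plates 1 and 2, 24.4 and 44.7 CPM in other cells and 16.8 and 13.8 CPM in cycling cells. Cycling cells were lowest on both plates, while promyelinating and other cells overlapped and took the opposite order on the plates, with log2 ratios of CPM + 1 of 1.79 on plate 1 and -0.36 on plate 2. The log2 fold change of cycling against promyelinating cells was -1.94 ± 0.63 (SE), with an edgeR adjusted p of 0.130. DESeq2 gave that difference an adjusted p of 0.0188, the lowest of the 11 alternative fits, of which 3 passed. A read was found in 37.3% and 33.3% of promyelinating cells against 21.1% and 21.2% of other cells and 18.9% and 21.1% of cycling cells, and thinned to 50000 reads in 32.2% and 29.3%, 18.3% and 17.7%, and 15.4% and 15.8%.

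**Figure D3:**
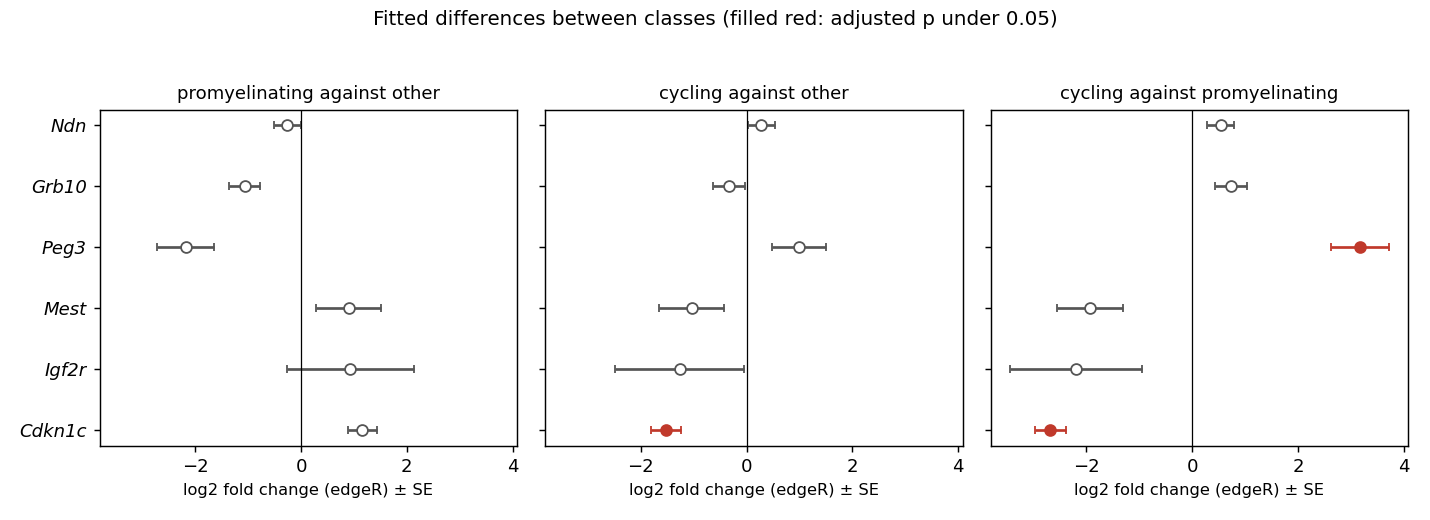
Log2 fold change (horizontal axis) of 5 members and Cdkn1c in each of the 3 comparisons, as points with the standard error as bars, from edgeR on the 6 class sums; filled red points had an adjusted p under 0.05. Igf2 and Plagl1, read in 11 and 10 cells, are left out. Among the members Peg3 alone passed, at 3.17 ± 0.55 for cycling against promyelinating cells, and Cdkn1c passed in both comparisons that involve cycling cells.

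Cdkn1c (ENSMUSG00000037664, chr7:143458339-143461050, minus strand) encodes p57, a maternally expressed inhibitor of cyclin-dependent kinases. It had 1132 and 1546 CPM in promyelinating cells, 494 and 774 CPM in other cells and 163 and 240 CPM in cycling cells, with no overlap between the classes. The log2 fold change was -2.68 ± 0.29 (SE) for cycling against promyelinating cells (edgeR adjusted p 0.00125). It was -1.52 ± 0.28 for cycling against other cells, where the edgeR adjusted p of 0.0495 ranged from 2.08e-05 to 0.0937 over the 11 alternative fits and passed in 6 of them. For promyelinating against other cells it was 1.16 ± 0.28 with an edgeR adjusted p of 0.0982, which became 0.00427 with the plate as a block. Over the 11 alternative fits that adjusted p ranged from 0.000788 to 0.126, and 6 of them passed. A Cdkn1c exon overlaps Gm44732 on the opposite strand.

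Across single cells, Mest was the member whose level followed that of Cdkn1c most closely. The Spearman correlation was 0.36 over the 287 cells of plate 1 and 0.34 over the 334 cells of plate 2. It was also positive within each class: 0.32 and 0.38 in promyelinating cells, 0.36 and 0.36 in other cells, and 0.23 and 0.11 in cycling cells. Thinning every cell to 50000 reads gave 0.34 on plate 1 and 0.35 on plate 2. Among other cells, the median Cdkn1c level was 555 and 719 CPM in the 37 and 46 cells with a Mest read against 1.67 and 42.4 CPM in the 138 and 171 cells without one. Among promyelinating cells it was 1386 and 2082 CPM with a Mest read against 352 and 910 CPM without. Cells share a plate, a depth and a class, and both genes correlated with the number of genes detected, Mest at 0.19 and 0.16 and Cdkn1c at 0.22 and 0.19, so these correlations are a description without a test.

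Peg3 took the opposite sign, with a correlation with Cdkn1c of -0.14 on plate 1 and -0.24 on plate 2. Within promyelinating cells it was -0.05 and -0.07, within cycling cells -0.06 and -0.25, and within other cells -0.04 and -0.23, so it was weak on plate 1 once the classes were separated. Grb10 had -0.05 and -0.07, Ndn -0.00 and -0.03, and Igf2r 0.11 and 0.10. The sign of Ndn in promyelinating cells differed between the plates, at 0.11 on plate 1 and -0.41 on plate 2. Igf2 and Plagl1 were read in too few cells for a correlation to be described.

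**Figure D4:**
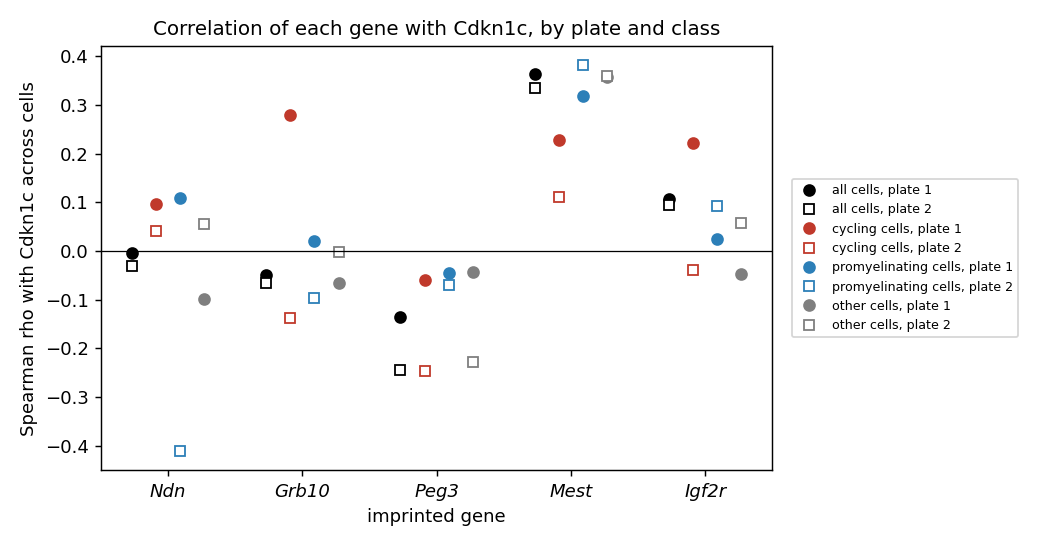
Spearman correlation with Cdkn1c across cells (vertical axis) for 5 members, over all cells (black) and within cycling (red), promyelinating (blue) and other cells (grey); filled circles are plate 1 and open squares plate 2. All 8 values of Mest lay above 0, from 0.11 to 0.38, and all 8 of Peg3 below 0, while the values of Ndn, Grb10 and Igf2r fell on both sides of 0.

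The members hardly correlated with each other. Over the 10 pairs of Ndn, Grb10, Peg3, Mest and Igf2r on each plate, Spearman values ran from -0.18 to 0.09. The lowest was Peg3 with Mest on plate 2, where 9 cells had a read of both and the separate shares would give 19.6. On plate 1 the same pair had 19 cells with both against 16.8 from the shares. Cells with reads of Grb10, Ndn and Peg3 together numbered 20 of 287 on plate 1 and 27 of 334 on plate 2.

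For each member read in at least 20% of the cells, the genes most like it were sought among 4925 genes read in at least 20% of the cells on each plate, by Spearman correlation averaged over the plates. Mest stood apart. Its closest gene was Copg2, a coat protein gene of Golgi vesicles, at 0.68 on plate 1 and 0.71 on plate 2, and its next was Cdkn1c at a mean of 0.35, against a median of 0.03 over all genes compared. Copg2 lies next to Mest on the opposite strand and shares 912 exon bases with it, or 23.1% of the Mest exon length. No strand-keeping step is named for these libraries or for the counting, so reads of the shared stretch cannot be told apart. The Mest and Copg2 values, and the correlation between them, are uncertain to that extent. A Copg2 read was found in 73.9% and 76.9% of the cells with a Mest read and in 7.34% and 5.47% of those without. Copg2 followed Cdkn1c less closely than Mest did, with correlations of 0.22 and 0.24. Between the classes it had 46.6 and 19.9 CPM in promyelinating cells, 16 and 35.6 CPM in other cells and 9.86 and 27.2 CPM in cycling cells, with an edgeR adjusted p of 0.602 for cycling against promyelinating cells.

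The other members had no partner above 0.25. Ndn was closest to Eif4a1, a translation initiation helicase, at a mean of 0.24, and to Tuba1a, an alpha tubulin, at 0.24. Peg3 was closest to Scn7a, a sodium channel relative found in nonmyelinating glia, and to Nr2f2, a nuclear receptor, each at 0.20. Grb10 was closest to Nid1, a basement membrane protein, and to Cenpa, the histone of centromeres, each at 0.17. Of these 6 genes, 3 were higher in cycling than in promyelinating cells by edgeR. The log2 fold change was 2.18 ± 0.35 (SE) for Nr2f2 (adjusted p 0.00893), 0.99 ± 0.15 for Tuba1a (adjusted p 0.00568) and 8.74 ± 1.61 for Cenpa (adjusted p 0.0187). Nr2f2 was also lower in promyelinating than in other cells, at -1.92 ± 0.35 (edgeR adjusted p 0.0324). These genes were picked for their correlation across the same cells, so a class pattern like that of the member is not independent of the choice.

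Of 55 other genes imprinted in at least some mouse tissues, 48 were measured, 9 of them at 0 reads, and 31 were tested. Between cycling and promyelinating cells 2 were higher, beside 3.83% of all genes, and 1, Cdkn1c, was lower, beside 2.12%. Both of the higher genes lie in an imprinted cluster of chromosome 6, but the pattern was not shown for the cluster as a whole. Of its other listed genes, Ppp1r9a took the opposite sign, at -0.57 ± 0.64 (SE, edgeR adjusted p 0.678). Peg10 and Pon3 were read in 0.644% and 0.161% of the cells, and Asb4 and Calcr had 0 reads. Sgce, which encodes a sarcoglycan of the dystrophin complex, had 161 and 128 CPM in cycling cells, 99.3 and 137 CPM in other cells and 52.7 and 36.5 CPM in promyelinating cells. Its log2 fold change was 1.76 ± 0.36 (SE), with an edgeR adjusted p of 0.0254. Pon2, a lactonase of the paraoxonase family, had 140 and 183 CPM in cycling cells, 91.8 and 111 CPM in other cells and 66.3 and 65.7 CPM in promyelinating cells, with a log2 fold change of 1.34 ± 0.30 and an edgeR adjusted p of 0.0384. Between cycling and other cells Cdkn1c was the 1 gene called, and between promyelinating and other cells the count was 0 by edgeR, with 4 at an unadjusted p under 0.05. The 3 genes of the list with the most CPM, a value that grows with transcript length and so gives no order of level between genes, were Cdkn1c, Cd81, a tetraspanin, and Gnas, the stimulatory G protein alpha subunit. Cd81 and Gnas passed in none of the 3 comparisons. The median log2 fold change of the 31 genes was 0.68 for cycling against promyelinating cells, -0.19 for promyelinating against other cells and -0.00 for cycling against other cells, where all genes had 0.02, -0.07 and -0.07.

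The partners of Igf2, Igf2r and Grb10 in IGF and insulin signalling were read from a list of 26 genes, of which 22 were tested. The ligand Igf1 had 18 reads, all in 1 cell, while its receptor Igf1r was read in 29.0% of the cells and the insulin receptor Insr in 11.1%. The 1 gene of 22 called was Igfbp3, which encodes a secreted protein that binds IGFs. It was called between promyelinating and other cells, beside 1.79% of all genes, and between cycling and promyelinating cells, beside 5.95%. Igfbp3 had 1.69 and 2.25 CPM in promyelinating cells on plates 1 and 2, 67.6 and 43.9 CPM in other cells and 73.0 and 17.1 CPM in cycling cells, so promyelinating cells lay below every other sum. Its log2 fold change was -4.75 ± 0.85 (SE) for promyelinating against other cells (edgeR adjusted p 0.0300) and 4.59 ± 0.84 for cycling against promyelinating cells (edgeR adjusted p 0.0168). The 3 genes with the most CPM, again without scaling for length, were Grb14, the relative of Grb10 that also binds the insulin receptor, Foxo3, a transcription factor held back by Akt, and Pik3r1, a regulatory subunit of PI 3-kinase. These 3 passed in no comparison. The median log2 fold change of the 22 genes was 0.27 for cycling against promyelinating cells, -0.22 for promyelinating against other cells and -0.04 for cycling against other cells, beside the medians of all genes given above.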

How the data were processed

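Single eYFP-positive cells were processed by the authors with a miniaturised Smart-seq2 protocol, which copies full-length polyadenylated RNA without molecular identifiers. The deposited values are raw read counts per gene and well. The submitters' processing notes name bcl2fastq, STAR 2.6.1c, featureCounts and GRCm38.p5, and strand use is not given in the sources used here. Of 25700 identifiers, 25587 matched a symbol. Kept cells had a median of 928401 reads on plate 1 and 791056 on plate 2. Each class of a plate was added up to 1 sum, and the sums were compared with edgeR 4.0.16 (TMM, filterByExpr, robust quasi-likelihood) in R 4.3.3, with Benjamini-Hochberg adjustment and a threshold of 0.05. DESeq2 1.42.0 and limma 3.58.1 were alternatives. The fits of edgeR, DESeq2 and limma were tested on simulated sums, for promyelinating against other cells alone. Cells of a plate come from the same mice, so plates pair the class sums, and deviations from the class means correlated at 0.10, 0.21 and 0.15 between the classes over 3713 genes. Plates are pools of separate mice, but intervals on shares cover counting error only. Named genes were the members, Cdkn1c, the 2 closest genes per member, the genes called in the lists and the 3 of each list with the most CPM. Igf1, Igf1r and Insr, and the promoters shown, were chosen after values were seen. The members and lists were chosen with earlier results of these data known. The wells under 1500 genes entered no comparison but the alternative fit with cells of at least 1000 genes, which used 648 cells.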

Additional observations from a re-analysis of the deposited data

Results flagged for a closer look

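The 122 wells with fewer than 1500 detected genes entered none of the main comparisons. They held reads of several of the genes, above the limit of 3 reads in their 20955228 reads (0.143 CPM). Grb10 stood at 198 CPM, with a read in 12 of the wells, Ndn at 56.4 CPM in 3 wells and Peg3 at 53.6 CPM in 5 wells. Igf2r had 2.00 CPM and Mest 0.716 CPM, while Cdkn1c had 343 CPM with a read in 24 wells. Igf2, Dlk1 and Plagl1 had 0 reads there. With 2 plates per class, no sample could be set apart from its group by a test for outlying values.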

How the results depend on the processing

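Between promyelinating and other cells, the number of members called went from 0 to 2 with DESeq2, and to 1 with limma, with no filter on low counts and with cells thinned to 50000 or 100000 reads. Between cycling and promyelinating cells it went from 1 to 2 with DESeq2, with no filter and at both thinned depths. The cause was not tested. Between cycling and other cells it was 0 under all 11 alternatives. The replicate block, with the plate as a term, left the count at 0 between promyelinating and other cells, 1 between cycling and promyelinating cells and 0 between cycling and other cells, and among the members and Cdkn1c it changed the call of Cdkn1c between promyelinating and other cells alone. Directions that turned were all of differences that did not pass: Igf2 between promyelinating and other cells became -2.05 with the replicate block, Grb10 and Ndn between cycling and other cells became 0.105 and -0.0359 with cells of at least 2500 genes, and Foxo3 between promyelinating and other cells became 0.0214 there. Plagl1 between cycling and other cells became -0.0042 with limma. On the log2 ratio of CPM + 1, without the 3 richest cells per plate and class, Igf2 (-0.01) and Igf2r (-0.17) turned between promyelinating and other cells, and Peg3 (-0.08) and Ndn (-0.14) between cycling and other cells. That step took almost all Igf2 reads, and for the rest a larger part of the reads of the smaller class, so these turns are no check on the differences. Without plate 1, Igf2 (-0.26) and Mest (-0.36) turned between promyelinating and other cells and Ndn (-0.13) between cycling and other cells. Without plate 2, Plagl1 turned in all 3 comparisons. Cdkn1c between cycling and other cells missed the threshold in 5 of the 11 alternatives. No fit with 1 plate left could be tested, so each gene then has a ratio from the plate that remained. For Peg3, cycling against promyelinating, that log2 ratio of CPM + 1 was 2.37 without plate 1 and 3.42 without plate 2.

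Counts over all genes moved with the tool. DESeq2 called 1026, 807 and 2322 genes between promyelinating and other, cycling and other, and cycling and promyelinating cells, where edgeR called 238, 134 and 791. With limma the counts were 379, 232 and 1343, and with no filter 521, 317 and 1290. Thinned to 50000 reads they were 419, 248 and 1139, and thinned to 100000 reads 372, 212 and 1057. Reads without molecular identifiers and genes carried by few cells limit what 2 plates can show for Igf2, Plagl1 and Igf2r.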
